A study of Mus musculus with 21 samples.

Results

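The comparison described here set the testes of 4 wild-type mice treated with bisphenol A (BPA; animals T60, T75, T61 and T74) against those of 4 wild-type mice treated with stigmasterol (animals T78, T98, T118 and T119). These 8 libraries are 8 of the 21 in the study and were chosen by genotype and treatment label alone. No vehicle library entered the test. The study crossed genotype, wild type or knockout of the bile acid receptor FXRα (gene Nr1h4), with vehicle, BPA or stigmasterol. Every animal was at postnatal day 10 and of a strain labelled 50% 129sv; 50% C57Bl6, and each library came from the testis of 1 animal. For dose, route and duration of treatment, the deleted part of Nr1h4 and the litter of each animal, the labels give no information, so animals of a group may share a litter. The 4 wild-type vehicle animals (T66, T71, T79 and T81) are given beside the results for orientation. The knockout animals (3 given BPA and 3 given stigmasterol) serve as the same comparison in other mice.

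BPA is a monomer of polycarbonate plastics and epoxy resins. It binds the estrogen receptors weakly and is classed as an endocrine disruptor. Stigmasterol is a plant sterol of soy and other oils that resembles cholesterol and is known as an antagonist of FXR. At this age the mouse testis holds Sertoli cells, which nurse the germ cells, spermatogonia, and the leading wave of germ cells that enters meiosis. Around the tubules lie the contractile peritubular myoid cells and the steroid-producing Leydig cells. A whole-testis library measures the sum of these, so fewer cells of a type and less RNA per cell cannot be told apart.

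The 8 libraries held 35459523 to 55605367 counts. Levels are given as CPM (a gene's counts relative to the scaled total of its library), and fold changes as log2 of BPA over stigmasterol, so that a negative value means a lower level under BPA. Markers of the tissue were present: 31 of 32 Sertoli cell genes, 17 of 19 Leydig cell genes, 18 of 20 genes of undifferentiated spermatogonia and 31 of 33 genes of meiotic prophase reached 1 CPM in all 8 libraries. Animals of a group differed by more than counting error. The chi-square per degree of freedom between pairs was 9.19 to 24.5 within BPA and 15.2 to 75.8 within stigmasterol, with the highest value for T78 against T98. On the first principal component of the 8 libraries (36.1% of the variance), the BPA animals lay at -6.86 to -32.1 and stigmasterol animal T78 lay among them at -26.5. The other stigmasterol animals lay at 9.60 to 48.5. On the second component (20.5%), T78 lay at -21.5, outside the BPA range of 2.65 to 20.1. The other stigmasterol animals lay at -39.9 to 18.5 there. The chi-square was 28.8 for T78 against T119, 53.3 for T78 against T118 and 49.4 for T98 against T119, all above the BPA range. It was within that range for T98 against T118 (15.2) and T118 against T119 (21.7). T78 thus lay with the BPA animals on the first component but not on the second. Counts below are given with and without T78.

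No gene passed the test between BPA and stigmasterol. Of 18999 genes with enough reads, edgeR's quasi-likelihood test called 0 (0%) at an adjusted p of 0.05, and the smallest adjusted p was 0.270. At an unadjusted p of 0.05, there were 2708 genes (14.3%), 1302 with a higher level under BPA (6.85%) and 1406 with a lower one (7.4%). limma-voom also called 0, with 2515 (13.2%) at an unadjusted p of 0.05, while DESeq2 called 399 (2.1%), 184 with a higher (0.968%) and 215 with a lower level (1.13%). A higher mean under BPA was found in 9325 genes (49.1%). Differences were small: the median absolute log2 fold change was 0.13, and 358 genes (1.88%) reached 1 in size. All 4 BPA animals lay above all 4 stigmasterol animals in 692 genes (3.64%) and below them in 618 (3.25%). Without T78, edgeR called 679 of 19214 genes (3.53%), 283 with a higher (1.47%) and 396 with a lower level under BPA (2.06%). Leaving out any other single animal gave 0 to 2 called genes. Between them, DESeq2 over all 8 libraries and edgeR without T78 shared 204 called genes, 51.1% of the former and 30.0% of the latter.

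The 20 genes with the smallest p had an adjusted p of 0.270 each, so none of the differences in the next paragraphs passed the test over all genes. They were chosen by their p in this same comparison, so their values and calls below are a description. In each of the 20 the 4 BPA animals did not overlap with the 4 stigmasterol animals, against 6.9% of all genes tested. Their log2 fold changes were 0.28 to 1.21 in size, 10 in each direction. All 20 kept their direction under each of 17 alternatives, all 20 were called by DESeq2 and all 20 were called by edgeR without T78. In the sentences that follow, BPA values are for T60, T75, T61 and T74 and stigmasterol values for T78, T98, T118 and T119, in that order, and errors on log2 fold changes are standard errors.

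Of the 10 with lower levels under BPA, Adam9, a membrane metalloprotease that sheds proteins from the cell surface (chr8:24949611-25016922, mm10), had the smallest p (0.00011). It stood at 57.9, 58.0, 54.4 and 60.4 CPM under BPA and at 69.7, 80.0, 76.5 and 74.95 CPM under stigmasterol. Every BPA animal lay below every stigmasterol animal, and the log2 fold change was -0.39 ± 0.06. Nr4a1, a nuclear receptor gene induced by luteinizing hormone in Leydig cells (chr15:101266846-101274792), stood at 31.0, 30.2, 33.7 and 30.1 CPM under BPA and 43.2, 52.9, 44.5 and 38.9 CPM under stigmasterol, a log2 fold change of -0.53 ± 0.09. The BPA animals were tightly grouped and below each of the others. St8sia2, which adds polysialic acid to neural cell adhesion molecule (chr7:73939119-74013682), stood at 15.3, 17.5, 15.7 and 18.7 CPM against 21.6, 33.4, 31.9 and 27.8 CPM. The log2 fold change was -0.78 ± 0.14, and T78 was the stigmasterol animal nearest to BPA. Grin2c, a subunit of the NMDA receptor, stood at 4.34, 4.36, 5.49 and 4.36 CPM against 6.61, 7.51, 7.77 and 7.13 CPM, or -0.65 ± 0.12.

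Kif21a, a kinesin motor that moves along microtubules (chr15:90933276-91049948), stood at 111, 112, 125 and 115 CPM under BPA and 150.2, 198, 211 and 257 CPM under stigmasterol. Its log2 fold change of -0.83 ± 0.14 was, with that of Slc2a12, the largest in size among those of the 20 genes that were lower. Slc2a12, the glucose transporter GLUT12, stood at 11.4, 11.8, 11.4 and 10.5 CPM against 14.8, 22.97, 19.2 and 22.9 CPM, or -0.83 ± 0.14. Fads2, the first desaturase of polyunsaturated fatty acid synthesis (chr19:10064164-10101503), stood at 178, 180.3, 195 and 185 CPM against 209, 268, 255 and 261 CPM, or -0.43 ± 0.08. In Kif21a, Slc2a12 and Fads2 alike, T78 was the stigmasterol animal nearest to the BPA group. Enc1, an actin-binding protein, had means of 116.7 ± 3.88 CPM and 142 ± 4.34 CPM (SD, n = 4 each; -0.28 ± 0.05). Nacc2, a transcriptional repressor, had means of 57.2 ± 1.58 CPM and 76.4 ± 6.87 CPM (-0.42 ± 0.07). Phip, which binds insulin receptor substrate, had means of 128 ± 5.06 CPM and 158 ± 8.44 CPM (-0.31 ± 0.06), and here T78 was the stigmasterol animal farthest from BPA.

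Of the 10 with higher levels under BPA, Adam33, a metalloprotease of mesenchymal cells (chr2:131050591-131063814), stood at 16.0, 23.2, 19.3 and 18.0 CPM under BPA and 13.0, 10.1, 9.60 and 8.81 CPM under stigmasterol, a log2 fold change of 0.88 ± 0.15. Pamr1 (chr2:102550012-102643041) stood at 10.7, 14.3, 11.2 and 13.9 CPM against 8.71, 5.89, 5.69 and 4.71 CPM, or 0.99 ± 0.19. For both, T78 was again nearest to the BPA group. Fndc1, a protein with fibronectin type III repeats, stood at 3.95, 6.29, 3.69 and 4.43 CPM against 1.91, 2.29, 2.35 and 1.88 CPM, or 1.11 ± 0.19. Mir143hg, the host transcript of a microRNA pair of smooth muscle, stood at 6.90, 10.1, 4.80 and 6.07 CPM against 3.24, 2.77, 2.87 and 3.24 CPM, or 1.20 ± 0.22. T75 was the highest library in Adam33, Fndc1, Mir143hg and Pamr1, and in Fndc1 T78 lay within the range of the other stigmasterol animals. Hoxd3, a homeobox transcription factor gene whose span overlaps Hoxd4, Mir10b, Haglr and Hoxd3os1, had the largest value of the 20, 1.21 ± 0.23. It rested on few reads, 41 to 180 per library, at 3.52, 3.55, 1.82 and 2.45 CPM against 1.38, 1.104, 1.20 and 1.21 CPM. Hoxd3 was highest in T60 and T75, the libraries with the most Cdh16, an epididymal transcript described below. Among vehicle animals it was highest in T81 (2.58 CPM) and among knockouts in T93 (12.8 CPM). Cdh16 too was highest in T81 and T93 of these animals (17.6 and 203 CPM). The part of epididymal tissue in the Hoxd3 difference was not tested.

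Pou5f1, the pluripotency factor OCT4 that marks undifferentiated spermatogonia (chr17:35506018-35510772), stood at 7.53, 6.80, 7.86 and 6.84 CPM under BPA and 4.46, 5.13, 4.80 and 3.89 CPM under stigmasterol. The groups were clearly separated, with a log2 fold change of 0.66 ± 0.12, and the vehicle animals stood at 6.39, 5.11, 8.02 and 5.99 CPM in T66, T71, T79 and T81. T71 was just under the highest stigmasterol animal, and T79 was above all BPA animals. Ntrk3, the receptor of neurotrophin 3, stood at 5.98, 7.08, 5.82 and 7.32 CPM against 3.71, 3.81, 4.47 and 4.18 CPM, or 0.69 ± 0.13. Slc25a27, a mitochondrial carrier, had means of 21.5 ± 1.57 CPM and 15.7 ± 0.607 CPM (0.45 ± 0.08), and Mturn of 26.6 ± 0.843 CPM and 19.2 ± 2.099 CPM (0.47 ± 0.09). Yam1 (chr17:39846958-39848788) lies over an 18S ribosomal RNA-related pseudogene, Rn18s-rs5, in RefSeq. It stood at 1912, 1504, 1607 and 2518 CPM against 1133, 1191, 931 and 954 CPM, or 0.84 ± 0.16. Vehicle animal T71 reached 10986 CPM, above all 8 treated animals. Reads of Pou5f1, Mturn, Slc2a12 and Grin2c can be shared with overlapping genes, since the library kit did not mark the strand.

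**Figure D1:**
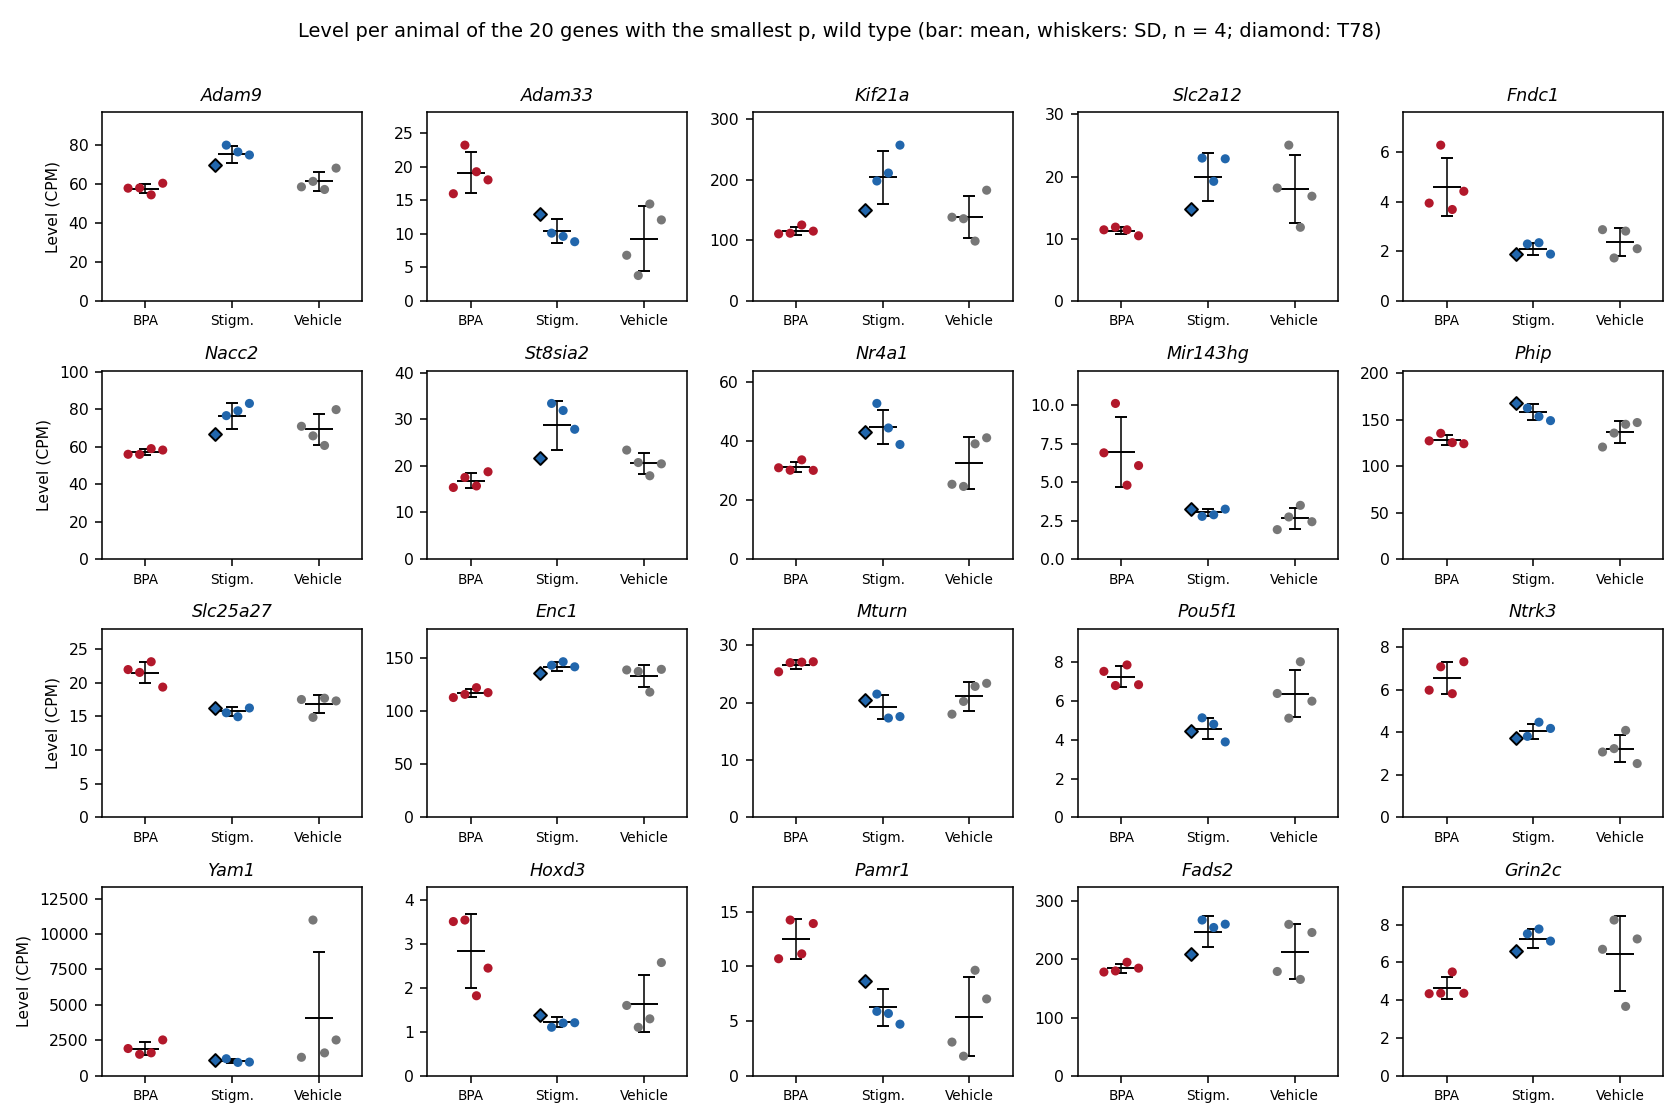
Level in CPM of the 20 genes with the smallest p, in the order of p, in the wild-type BPA, stigmasterol and vehicle animals. Each point is 1 animal, the bar is the mean and the whiskers the SD (n = 4), and the diamond marks T78. BPA and stigmasterol animals do not overlap in any panel, and T78 is the stigmasterol animal nearest to BPA in panels such as Kif21a, Slc2a12 and Fads2.

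T78 was more often the stigmasterol animal nearest to the BPA group than T98, T118 or T119. Among the 1310 genes whose groups did not overlap, T78 was the stigmasterol animal nearest to BPA in 662 (50.5%), against 310 for T98, 174 for T118 and 164 for T119. In the BPA group these shares were more even, from 208 genes for T75 to 400 for T74. Of the 679 genes called without T78, 197 also kept the groups apart in all 8 libraries, where 6.9% of all genes did. The 679 were called from the same libraries less T78, so this count is a description. In Hsd3b6, an enzyme of steroid synthesis in Leydig cells, T78 lay inside the BPA range, at 0.528, 0.763, 0.977 and 0.657 CPM under BPA and 0.588, 3.90, 4.11 and 2.77 CPM under stigmasterol. The log2 fold change was -1.96 ± 0.51 over all 8 (adjusted p = 0.270) and -2.30 without T78 (edgeR adjusted p = 0.00925). Sesn2, a stress-induced regulator of nutrient signalling, stood at 76.7, 68.1, 83.2 and 71.03 CPM against 75.3, 152, 138 and 129.97 CPM. T78 lay inside the BPA range, and the log2 fold change went from -0.73 ± 0.19 to -0.90 (edgeR adjusted p = 0.00925) without it.

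Transcripts of neighbouring tissues differed between individual animals, and the libraries that held them were mainly in the BPA group. Cdh16, a cadherin of kidney and epididymal epithelium, stood at 25.3, 23.6, 0.890 and 0.877 CPM under BPA, at 0.223, 2.62, 0.582 and 1.18 CPM under stigmasterol and at 0.307, 0.1002, 0.380 and 17.6 CPM in vehicle. T60 and T75 were thus the only libraries of the comparison above 10 CPM. Their muscle actin Acta1 was 10.99 and 20.4 CPM, against 0.239 CPM or less in the other 6. The skeletal muscle list, of which Acta1 is a member, was not tied to T60 and T75 in this way. Of its 13 tested genes, 10 had a higher and 3 a lower mean under BPA, where 49.1% of all genes were higher. Their median was 0.28 and stayed at 0.24 to 0.38 in all 17 alternatives, those without T60 and T75 included. Of 21 epididymal genes, 14 had enough reads, and 14 of 14 had a higher mean under BPA (median log2 fold change 1.32; 9 at an unadjusted p of 0.05, where 6.85% of all genes were higher). A gene high in 1 group alone passes the read filter, so this count is a description. The summed level of all 21 was 71.5 to 257 CPM under BPA and 61.5 to 102 CPM under stigmasterol, with no member at 0 in all 8. Without T60 and T75 the median was 0.05, and -0.14 without T61 as well. Pax8, a transcription factor of this epithelium, had means of 4.59 ± 1.12 CPM and 2.78 ± 0.533 CPM (0.71 ± 0.20) and Krt18 of 6.41 ± 4.62 CPM and 1.75 ± 0.893 CPM (1.86 ± 0.56). Alb, the plasma protein albumin, stood at 4.59, 58.6, 578 and 0.373 CPM against 2.92, 1.86, 2.27 and 1.502 CPM. Ahsg, fetuin A, stood at 10.1, 31.6, 253 and 7.80 CPM against 7.72, 11.5, 10.003 and 9.39 CPM, and the apolipoprotein gene Apoa1 at 1.27, 7.44, 82.3 and 0.197 CPM against 1.05, 0.476, 0.691 and 0.618 CPM. T61 was the highest library in all 3, followed by T75. Of 21 liver genes 13 had enough reads, all 13 with a higher mean under BPA (median 2.97), where 49.1% of all genes were higher. This count too is a description, since a gene high in 1 group alone passes the read filter. The summed level of all 21 ran from 27.2 to 1269 CPM under BPA and from 32.1 to 37.03 CPM under stigmasterol. The median was -0.002 without T61 and T75, and -0.86 without T60 as well.

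**Figure D2:**
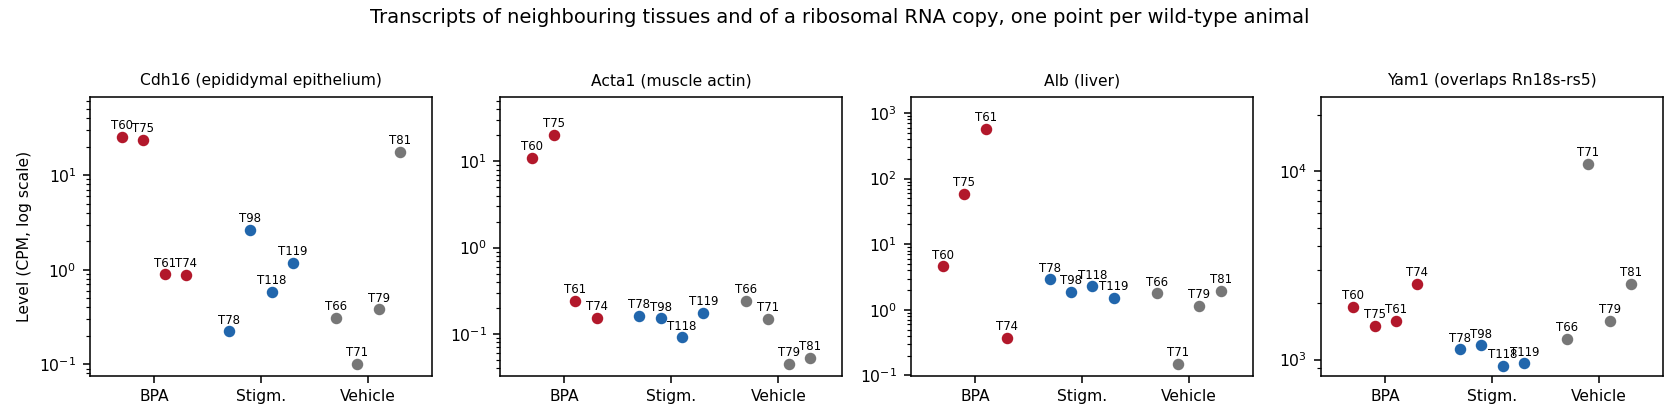
Level in CPM (log scale) of Cdh16, Acta1, Alb and Yam1, 1 labelled point per wild-type animal. Cdh16 is above 10 CPM in T60, T75 and vehicle T81, Acta1 in T60 and T75, and Alb in T61 and T75, and Yam1 is highest in vehicle T71.

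The genes of steroid-producing Leydig cells stood mostly lower under BPA. Of 18 tested members of the list, 15 had a lower and 3 a higher mean, with a median log2 fold change of -0.22, against -0.0041 over all genes. At an unadjusted p of 0.05, 8 were lower and 0 higher, where 7.4% and 6.85% of all genes were, and none was called. Cyp17a1, which makes androgen precursors, stood at 31.2, 43.2, 38.05 and 89.6 CPM under BPA and 84.4, 88.5, 94.8 and 179 CPM under stigmasterol (-1.15 ± 0.35). The groups overlapped through T74. Cyp11a1, which cuts the cholesterol side chain, stood at 70.3, 88.2, 68.8 and 86.0 CPM against 106, 78.4, 111 and 144 CPM (-0.49 ± 0.17). Star, which carries cholesterol into mitochondria, had means of 35.0 ± 11.9 CPM and 56.6 ± 16.3 CPM (-0.70 ± 0.26), Fdx1, the electron donor of Cyp11a1, 27.8 ± 4.28 CPM and 41.5 ± 8.80 CPM (-0.58 ± 0.16), and the luteinizing hormone receptor Lhcgr 7.26 ± 0.607 CPM and 9.90 ± 2.73 CPM (-0.45 ± 0.20). T119 was the highest of the 8 libraries in each of these 5. The score of the list, its mean log2 level relative to the 8 libraries, was -0.28 to -0.09 in the BPA animals and -0.02 to 0.37 in the stigmasterol animals. Vehicle animals spanned -0.13 to 0.51, and 3 of the 4 lay below every stigmasterol animal. Without each library in turn the median stayed between -0.29 and -0.18.

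Most Sertoli cell genes also stood lower under BPA. Of 32 members, 25 had a lower and 7 a higher mean (median -0.18), where 49.1% of all genes had a higher mean. At an unadjusted p of 0.05, 7 were lower and 1 higher, where 7.4% and 6.85% of all genes were. Unlike those of the Leydig list, the scores overlapped, at -0.20 to 0.16 in the BPA animals and -0.15 to 0.34 in the stigmasterol animals. Defb36, a defensin of Sertoli cells, stood at 56.4, 52.3, 58.8 and 59.96 CPM under BPA and 62.4, 69.3, 77.0 and 89.2 CPM under stigmasterol (-0.39 ± 0.11), without overlap. Inha, the inhibin α subunit, stood at 473, 427, 542 and 403 CPM against 552, 522, 631 and 879 CPM (-0.49 ± 0.16). Ctsl, a secreted protease, had means of 1063 ± 70.5 CPM and 1323 ± 153 CPM (-0.32 ± 0.09). Cldn11, the claudin of the blood-testis barrier, stood at 395, 302, 419 and 325 CPM against 342, 502, 528 and 551 CPM (-0.42 ± 0.16). T78 was at 341.6 CPM, inside the BPA range. Rhox5, an androgen-responsive homeobox gene, stood at 10.97, 5.91, 7.23 and 4.21 CPM against 4.72, 26.9, 24.7 and 13.3 CPM (-1.30 ± 0.49). The median of the list was -0.08 without T119 and -0.27 without T98.

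Peritubular myoid genes stood higher under BPA. All 13 tested members had a higher mean under BPA (median 0.45), where 49.1% of all genes had. At an unadjusted p of 0.05, 5 were higher, where 6.85% of all genes were. Scores overlapped, at -0.29 to 0.87 in the BPA animals and -0.42 to -0.04 in the stigmasterol animals. Tagln, a smooth-muscle actin-binding protein, stood at 147, 188, 103 and 124 CPM under BPA and 105, 78.2, 76.4 and 92.6 CPM under stigmasterol (0.67 ± 0.18). Actg2, a smooth-muscle actin, stood at 35.2, 42.5, 8.47 and 11.4 CPM against 10.6, 9.05, 10.003 and 9.16 CPM (1.33 ± 0.46), and Cnn1, calponin, at 50.5, 57.1, 18.0 and 21.7 CPM against 19.6, 17.2, 20.9 and 21.1 CPM (0.90 ± 0.34). In Actg2 and Cnn1 the 2 BPA libraries that stood out were T60 and T75, the same 2 with Cdh16 and Acta1, and T61 and T74 lay near the stigmasterol animals. Acta2 had means of 502 ± 132 CPM and 388 ± 44.4 CPM (0.37 ± 0.17). The median of the list was 0.22 without T75 and 0.04 without both T60 and T75. Col14a1, a connective tissue collagen, stood at 24.5, 61.9, 33.3 and 38.9 CPM against 26.4, 21.1, 20.4 and 17.0 CPM (0.89 ± 0.25), and Postn, the matrix protein periostin, at 57.8, 113, 46.0 and 62.5 CPM against 48.7, 24.7, 28.5 and 27.8 CPM (1.10 ± 0.30). T75 was again the highest library in both. Over the 32 collagen and matrix genes the median was 0.10, with 4 higher and 3 lower at an unadjusted p of 0.05.

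Among germ cells, most genes of undifferentiated spermatogonia had a higher mean under BPA and most of meiotic prophase a lower one. In the former list 18 of 20 members had a higher mean (median 0.23), where 49.1% of all genes had. At an unadjusted p of 0.05 (6.85% of all genes higher and 7.4% lower), 0 members were lower and 4 were higher. Besides Pou5f1 these included Neurog3, a factor of spermatogonia that prepare to differentiate, at 8.58, 6.87, 8.31 and 8.197 CPM under BPA and 7.09, 4.46, 5.11 and 3.86 CPM under stigmasterol (0.63 ± 0.18). Lin28a, an RNA-binding protein of spermatogonia, stood at 122, 115, 119.1 and 116 CPM against 120.3, 95.5, 87.3 and 83.2 CPM (0.28 ± 0.10). Utf1, a chromatin factor, had means of 3.10 ± 0.807 CPM and 2.02 ± 0.540 CPM (0.61 ± 0.24). In Neurog3 and Lin28a, T78 was the one stigmasterol animal near the BPA group. Scores of the list overlapped through T78, at 0.05 to 0.21 in the BPA animals and -0.27 to 0.20 in the stigmasterol animals. The median without T78 was 0.43, and without T118 it was 0.12.

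In the meiotic list 30 of 32 tested members had a lower mean under BPA (median -0.47), but only 2 were lower at an unadjusted p of 0.05, below the 7.4% of all genes. The stigmasterol animals did not form 1 group here. Meiob, a meiotic DNA repair factor, stood at 3.36, 1.31, 1.54 and 2.02 CPM under BPA and 0.507, 24.3, 10.3 and 2.21 CPM under stigmasterol (-2.18 ± 0.91). Rad51ap2 stood at 4.20, 2.27, 2.52 and 4.03 CPM against 1.46, 28.8, 15.2 and 3.36 CPM (-1.91 ± 0.76), and Sycp3, of the synaptonemal complex, at 46.1, 32.9, 35.3 and 41.4 CPM against 26.3, 128, 81.8 and 31.1 CPM (-0.79 ± 0.44). T98 and T118 were above, and T78 below, all BPA animals in each of the 3 genes. The meiotic score ran from -0.75 in T78 to 1.15 in T98 under stigmasterol and from -0.34 to 0.11 under BPA, and the 4 vehicle animals spanned -0.93 to 0.75. Without T98 the median was -0.10. The lists of differentiating spermatogonia (median 0.02), later germ cells (0.01) and cell division (-0.03) lay near that of all genes and changed sign in 2 to 4 of the 17 alternatives.

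**Figure D3:**
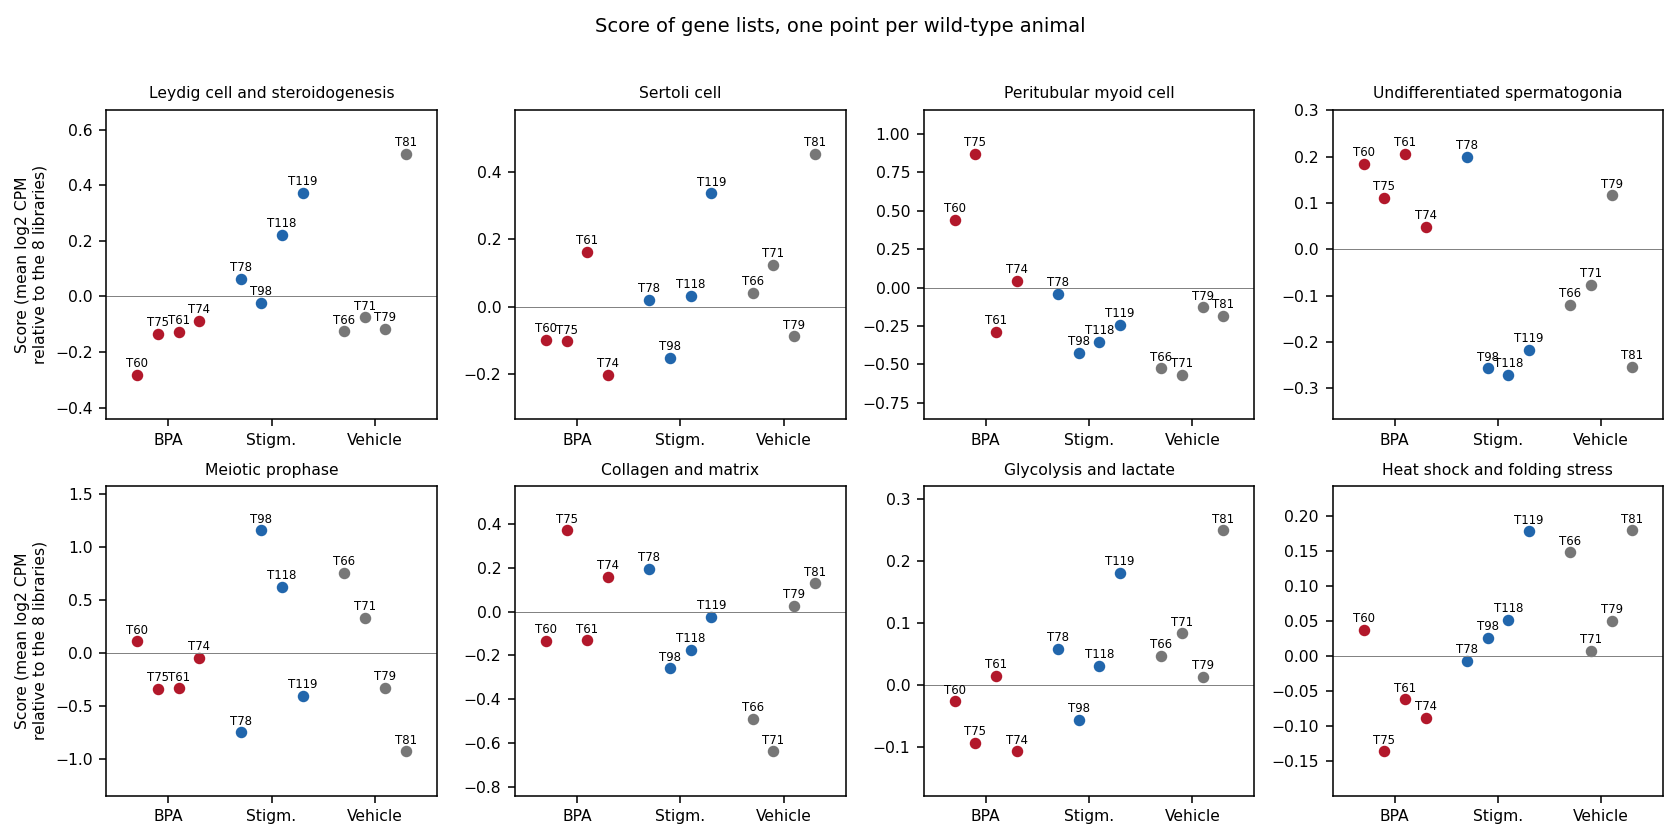
Score of 8 gene lists, the mean over the list of log2 CPM relative to the 8 BPA and stigmasterol libraries, with 1 labelled point per wild-type animal. Leydig scores of BPA animals lie below those of stigmasterol animals, myoid scores are high in T60 and T75, and stigmasterol animals span the meiotic range from T78 to T98.

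Stigmasterol is a plant sterol that resembles cholesterol. Of 26 genes of cholesterol synthesis, 17 had a lower and 9 a higher mean under BPA (median -0.04). At an unadjusted p of 0.05, 4 were lower and 1 higher, where 7.4% and 6.85% of all genes were. The median was 0.01 without T78 and -0.13 without T60, T61 and T75. Hmgcs1, a synthase early in the pathway, stood at 334, 339, 345 and 330.3 CPM under BPA and 437, 359, 456 and 516 CPM under stigmasterol. The groups did not overlap, with a log2 fold change of -0.40 ± 0.10 (edgeR adjusted p = 0.270). Cyp51 had means of 65.3 ± 2.72 CPM and 74.2 ± 4.49 CPM (-0.19 ± 0.06), and Ebp of 25.4 ± 3.61 CPM and 35.1 ± 5.47 CPM (-0.47 ± 0.14). Among 25 tested targets of the oxysterol receptor LXR and genes of sterol transport the median was 0.07, with 3 higher and 3 lower at an unadjusted p of 0.05. It was -0.011 without T61 and T75. Soat1, which esterifies cholesterol, stood at 157, 141, 157 and 160.0 CPM against 144, 215, 229.7 and 251 CPM (-0.46 ± 0.15). T78 was at 144.3 CPM, inside the BPA range, and without it the edgeR adjusted p was 0.0112.

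Of 27 fatty acid genes, 19 had a lower mean under BPA (median -0.05). At an unadjusted p of 0.05, 9 were lower and 2 higher, where 7.4% and 6.85% of all genes were. The median was -0.012 without T78 and -0.15 without T98. In 6 of the 27 the BPA animals lay below all stigmasterol animals, where 3.25% of all genes did. Besides Fads2 these were, for example, Acaca, the first enzyme of fatty acid synthesis, at 233, 241, 227 and 240.1 CPM against 268, 322, 280.2 and 255 CPM (-0.26 ± 0.07), and Cpt1a, which takes fatty acids into mitochondria, at 152, 174, 171 and 179 CPM against 189, 193, 193 and 219.9 CPM (-0.24 ± 0.07). Ucp2, a mitochondrial carrier, had means of 231 ± 28.2 CPM and 301 ± 35.9 CPM (-0.39 ± 0.11).

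Genes of energy metabolism and protein folding mostly stood lower under BPA by small amounts. At an unadjusted p of 0.05, 7.4% of all genes were lower and 6.85% higher. In glycolysis and lactate transport 15 of 20 had a lower mean (median -0.14) and 7 were lower at that p, with 0 higher. Scores overlapped, at -0.11 to 0.01 under BPA and -0.06 to 0.18 under stigmasterol. Pkm, pyruvate kinase, stood at 649, 561, 653 and 561 CPM under BPA and 701, 703, 752 and 815 CPM under stigmasterol (-0.30 ± 0.08). Slc16a1, a lactate transporter, stood at 114, 102, 114 and 105 CPM against 112, 152, 154 and 151 CPM (-0.39 ± 0.10), with T78 inside the BPA range, as also in Pfkfb3 (-0.39 ± 0.11). All 35 nuclear genes of oxidative phosphorylation had a lower mean, with a median of -0.09 and 6 at an unadjusted p of 0.05. Over all genes 49.1% had a higher mean. The genes of a list come from the same 8 animals, so such counts are a description. Scores of this list overlapped, at -0.12 to 0.03 in the BPA animals and -0.04 to 0.13 in the stigmasterol animals. Cox5a had means of 64.1 ± 4.02 CPM and 80.2 ± 11.5 CPM (-0.33 ± 0.11). Proteasome genes were lower in 21 of 22 (median -0.07, 5 at an unadjusted p of 0.05), and 28 of 35 cytosolic ribosomal protein genes were higher (median 0.04, 1 at an unadjusted p of 0.05). Scores overlapped in both lists, for the proteasome at -0.09 to 0.02 under BPA and -0.01 to 0.07 under stigmasterol. Of 24 heat shock and folding genes 17 had a lower mean (median -0.12), with 8 lower and 1 higher at an unadjusted p of 0.05. Here too the scores overlapped, at -0.14 to 0.04 under BPA and -0.01 to 0.18 under stigmasterol. Hsp90b1, a chaperone of the endoplasmic reticulum, stood at 848, 757, 725 and 786 CPM against 853, 1097, 1048 and 1091 CPM (-0.40 ± 0.09), and Hspa5, another, at 613, 518, 503 and 551 CPM against 529.8, 1109, 834 and 659 CPM (-0.52 ± 0.19).

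**Figure D4:**
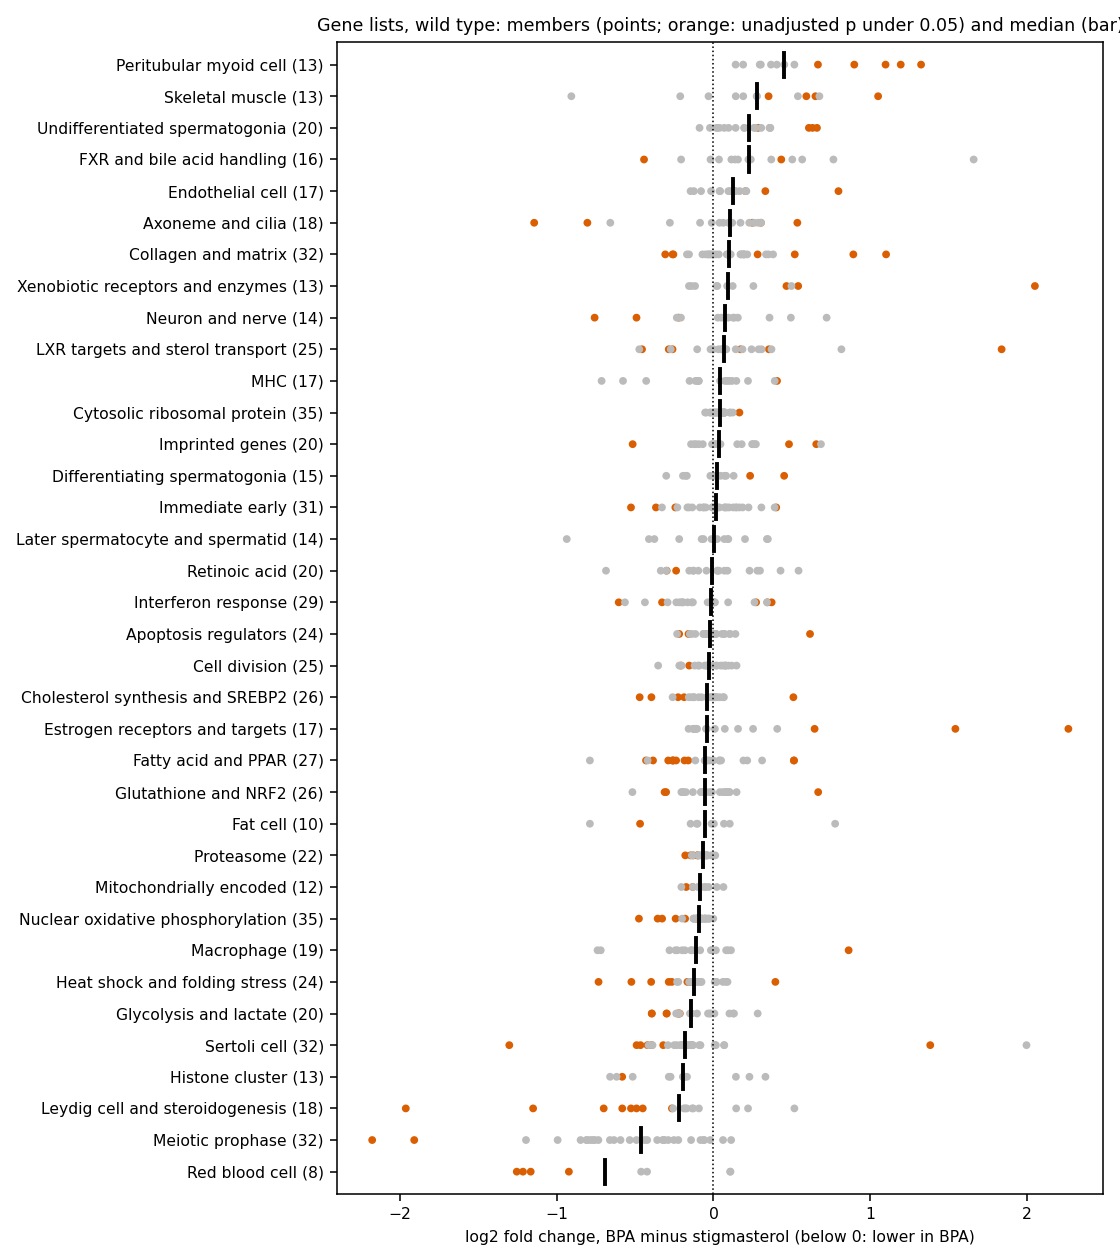
Log2 fold change (BPA minus stigmasterol) of the tested members of 36 gene lists, 1 point per gene, orange at an unadjusted p under 0.05. The black bar is the median of the list, the dotted line the median of all genes, and numbers in parentheses count tested members. Medians run from -0.69 (red blood cell) to 0.45 (peritubular myoid cell), and the epididymal and liver lists are not drawn.

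None of the receptor genes passed the test. Esr1, the estrogen receptor α gene, had means of 26.4 ± 2.71 CPM under BPA and 28.3 ± 2.54 CPM under stigmasterol, with a log2 fold change of -0.10 ± 0.09 (edgeR adjusted p = 0.621). Esr2 had 5.09 ± 0.537 CPM and 5.48 ± 2.22 CPM (-0.11 ± 0.26). Nr1h4 itself was scarce, at 0.371, 0.691, 0.868 and 0.241 CPM under BPA and 0.547, 0.303, 0.582 and 0.560 CPM under stigmasterol, from 11 to 40 reads per library. With a log2 fold change of 0.11 ± 0.40, a difference of the size of that standard error was not detectable at this depth. The LXR genes Nr1h3 and Nr1h2 gave -0.27 ± 0.26 and 0.07 ± 0.05. The 17 tested genes of the list of estrogen receptors and targets had a median of -0.04, with 8 above and 9 below 0, and 3 were higher and 0 lower at an unadjusted p of 0.05. The median had the other sign in 7 of 17 alternatives and ran from -0.11 without T98 to 0.20 without T78. C3, the member with the smallest p, stood at 4.85, 17.7, 66.3 and 5.41 CPM against 3.91, 6.39, 4.37 and 4.92 CPM (2.27 ± 0.77), highest in T61 and T75, the libraries with Alb. The 16 tested FXR and bile acid genes of 23 had a median of 0.23, which was -0.01 without T61 and T75, and Abcc3 had means of 3.20 ± 0.654 CPM and 2.36 ± 0.398 CPM (0.43 ± 0.18). Ahr, the aryl hydrocarbon receptor, stood at 19.3, 21.7, 17.2 and 21.8 CPM against 17.0, 14.9, 14.4 and 11.5 CPM (0.47 ± 0.13), without overlap. It was called by DESeq2 (adjusted p = 0.0403) and by edgeR without T78 (adjusted p = 0.0480), and not by edgeR over all 8 (adjusted p = 0.270). Cyp26b1, which clears retinoic acid in the fetal and young testis, stood at 269, 305, 294 and 295 CPM against 357, 325, 359 and 386 CPM (-0.30 ± 0.07), also without overlap.

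Single genes of other lists had small p-values. Among 20 imprinted genes, Peg10 stood at 142, 161, 165 and 168 CPM against 176, 241, 235 and 254 CPM (-0.52 ± 0.11) and Meg3 at 317, 415, 358 and 385 CPM against 331, 179, 188 and 236 CPM (0.66 ± 0.18), with T78 near the BPA animals in both. Tubb3, a neuronal tubulin, stood at 120.3, 105, 128 and 110.5 CPM against 139, 196, 221 and 226 CPM (-0.76 ± 0.14). Its list of 14 neuron and nerve genes went the other way, with 9 above and 5 below 0. The median of that list was 0.07 and changed sign in 5 of the 17 alternatives. Globin transcripts stood lower under BPA: Hba-a1 at 5.24, 4.58, 4.21 and 4.93 CPM against 8.33, 6.30, 8.97 and 20.4 CPM (-1.22 ± 0.33) and Hbb-bt at 4.98, 4.79, 3.23 and 5.30 CPM against 7.72, 5.63, 8.80 and 21.6 CPM (-1.26 ± 0.39). T119 held the most globin, and these genes have near-identical copies that can share reads. The 8 tested red blood cell genes had a median of -0.69, and -0.35 without T119. The medians of the interferon (-0.02), MHC (0.04), immediate early (0.02), apoptosis (-0.02), retinoic acid (-0.01) and glutathione (-0.05) lists were near 0. Those of the MHC, immediate early, apoptosis and retinoic acid lists changed sign in 1 to 4 of the 17 alternatives. Macrophage genes had a median of -0.11 and endothelial genes of 0.12.

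For other lists the member with the smallest p is given by its means under BPA and stigmasterol and its log2 fold change. Sohlh1, a factor of spermatogonial differentiation, had 81.5 ± 4.55 CPM and 69.1 ± 5.71 CPM (0.23 ± 0.07), and Crem, a spermatid regulator, 12.5 ± 0.586 CPM and 14.5 ± 2.08 CPM (-0.22 ± 0.11). Tpx2, a spindle factor, had 124 ± 10.5 CPM and 142 ± 6.83 CPM (-0.21 ± 0.07), the histone gene H2afz 71.3 ± 3.65 CPM and 81.2 ± 7.98 CPM (-0.19 ± 0.08), and the axonemal dynein Dnah12 1.39 ± 0.197 CPM and 3.05 ± 2.12 CPM (-1.14 ± 0.42). The groups overlapped in each of these 5. Unlike Dnah12, most of the 18 tested axoneme and cilia genes had a higher mean under BPA, 12 against 6 (median 0.11). Rpl22, a ribosomal protein, had 261 ± 11.8 CPM and 232 ± 9.81 CPM (0.17 ± 0.05), the proteasome subunit Psmd12 102 ± 2.31 CPM and 112 ± 4.10 CPM (-0.15 ± 0.05), and mt-Nd2, of mitochondrial complex I, 1251 ± 28.5 CPM and 1367 ± 43.1 CPM (-0.13 ± 0.05). These 3 showed no overlap between the groups. Gsta3, a glutathione transferase, had 30.8 ± 3.12 CPM and 37.8 ± 4.19 CPM (-0.30 ± 0.10), and Cidea, a lipid droplet protein, 23.7 ± 4.997 CPM and 32.7 ± 6.54 CPM (-0.47 ± 0.18). Fas, a death receptor, had 1.61 ± 0.337 CPM and 1.04 ± 0.182 CPM (0.62 ± 0.20). The lymphatic and macrophage marker Lyve1 had 3.17 ± 1.53 CPM and 1.73 ± 0.124 CPM (0.86 ± 0.30), the endothelial gene Plvap 5.68 ± 1.76 CPM and 3.26 ± 1.01 CPM (0.80 ± 0.28), the MHC gene H2-Q7 6.71 ± 1.24 CPM and 5.04 ± 0.908 CPM (0.41 ± 0.17), and the muscle troponin Tnnt3 1.65 ± 0.184 CPM and 1.09 ± 0.0920 CPM (0.59 ± 0.15). Of the last 7, Fas and Tnnt3 showed no overlap between the groups. All had adjusted p-values of 0.270 or more by edgeR.

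The same 2 treatments in FXRα knockout testes shared no library with the wild-type comparison. With 3 animals a side, edgeR called 2 of 19983 genes (0.01%), and 860 (4.3%) had an unadjusted p of 0.05. Of the 20 genes with the smallest p in wild type, 6 had the same direction in the knockouts. Over all genes the directions matched in 56.7%, over the 2708 genes at an unadjusted p of 0.05 in 53.8%, and over the 1310 genes without overlap in 49.5%. Adam33 kept its direction (0.26 ± 0.17 against 0.88 ± 0.15), as did Grin2c (-0.28 ± 0.28 against -0.65 ± 0.12). Adam9 (0.18 ± 0.07), Nr4a1 (0.34 ± 0.17), Pou5f1 (-0.41 ± 0.18) and Hoxd3 (-1.17 ± 0.56) had the opposite sign. In the knockouts the median of the Leydig list was 0.10 and that of the Sertoli list 0.09, both of the opposite sign. The meiotic list had -0.50 and the myoid list 0.19. Cdh16 was 17.6 and 27.9 CPM in knockout BPA animals T83 and T117 and 86.0 and 203 CPM in knockout stigmasterol animals T10 and T93, so epididymal transcripts there were higher on the stigmasterol side, with a list median of -1.41. Their part in these signs was not tested.

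Only 1 gene passed the test that the BPA minus stigmasterol difference differed between genotypes (0.005% of 19983; 1685, or 8.43%, at an unadjusted p of 0.05). It was Lta, the cytokine lymphotoxin α, with a difference of 4.07 ± 0.45 (edgeR adjusted p = 0.00993). Lta stood at 0.371, 0.453, 0.412 and 0.307 CPM in the wild-type BPA animals and at 0.223, 0.152, 0.0909 and 0.206 CPM in the stigmasterol animals, against a level of 0.0546 to 0.0884 CPM that 3 reads are worth in these libraries. In knockout animals it stood at 0.206, 0.134 and 0.123 CPM under BPA and at 1.45, 1.06 and 0.906 CPM under stigmasterol (log2 fold change -2.86 ± 0.34, adjusted p = 0.0189). Ltb, its neighbour, was the other gene called in the knockouts (-1.52 ± 0.19, adjusted p = 0.0189). In the knockout vehicle animals T1, T90 and T110, Lta stood at 1.265, 1.32 and 1.65 CPM and Ltb at 4.80, 3.84 and 4.41 CPM. These levels were near or above those of the knockout stigmasterol animals. For both genes the knockout BPA animals lay within the range of the wild types. H2-Q10, an MHC gene of the same region of chromosome 17, was at 64.9 to 77.9 CPM in knockout BPA animals, at 2.16, 34.7 and 40.8 CPM in knockout stigmasterol animals and at 46.3 to 89.6 CPM in the 12 wild-type animals. Knockout vehicle animals had 1.67 to 2.09 CPM. Pou5f1 (chr17:35506018-35510772), which had the opposite sign in the knockouts, lies near H2-Q10 (chr17:35470089-35474563). Without T83 or without T117 the difference between genotypes called 0 genes, without T15 it called 4, without T93 2 and without T78 19. The 2 calls in the knockouts were 0 without T83 and 1 each without T118 or T10. How these local differences relate to the call for Lta or to the sign of Pou5f1 was not tested. Nr1h4 was at 0.172 to 0.492 CPM in these 6 knockout animals, which overlaps the wild types, so its level at this depth does not check the genotype labels.

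**Figure D5:**
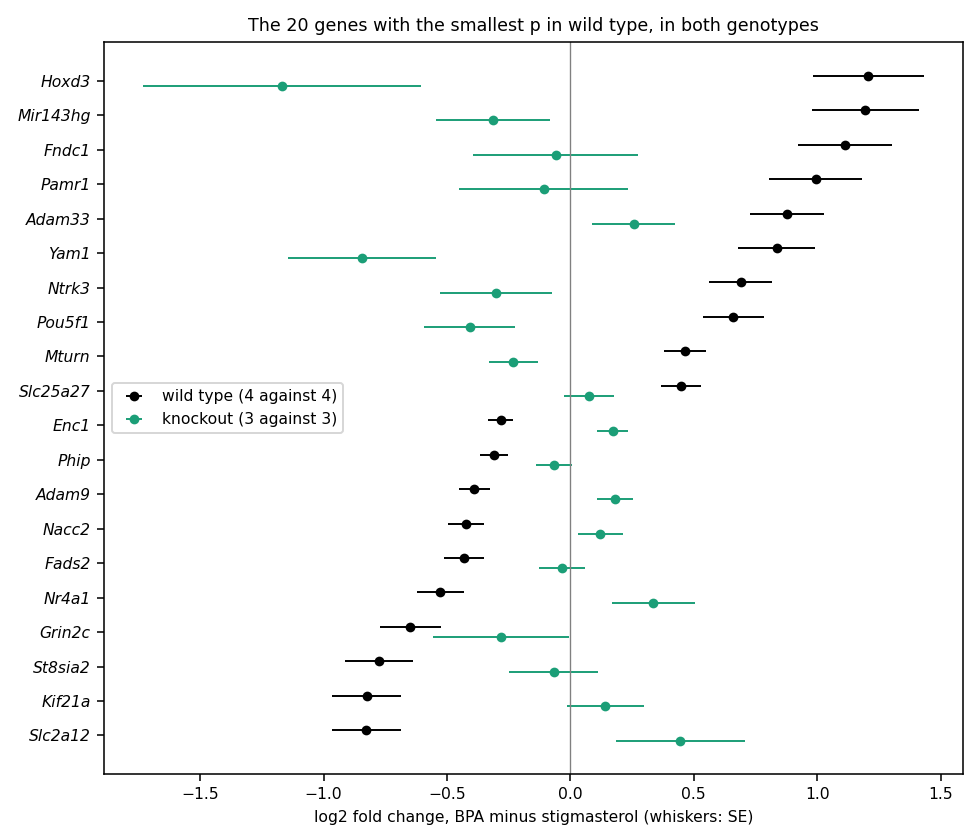
Log2 fold change (BPA minus stigmasterol) with its SE for the 20 genes with the smallest p in wild type, in wild type (black, 4 against 4 animals) and knockout (green, 3 against 3 animals). The wild-type values were chosen for their p and are a description, and 6 of the 20 have the same sign in the knockouts.

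The vehicle animals of the wild type lay between the treated groups for some of these genes and outside them for others. For Adam9 they stood at 58.6, 61.4, 57.2 and 68.2 CPM in T66, T71, T79 and T81, near the BPA level, so the log2 fold change against vehicle was -0.10 ± 0.07 for BPA and 0.29 ± 0.07 for stigmasterol. For Slc25a27 the vehicle mean, 16.8 ± 1.33 CPM, was near the stigmasterol mean, with 0.34 ± 0.08 for BPA and -0.11 ± 0.08 for stigmasterol. For Kif21a the values were -0.27 ± 0.18 and 0.55 ± 0.18, and for Ntrk3 1.00 ± 0.15 and 0.31 ± 0.15. Both contrasts use the same 4 vehicle animals, so they are not independent. Among the 1310 genes without overlap, T66, T71 and T81 were nearer to the BPA mean than to the stigmasterol mean in 30.7% to 37.0%, and T79 in 58.0%.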

How the data were processed

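RNA libraries from 21 testes were made with an Illumina TruSeq kit, per the labels' protocols, that does not mark strand. The tools named by the submitters' processing notes are TopHat2 2.0.10, Bowtie2 2.1.0, Bowtie and CASAVA 1.8.2, with the mm10 genome. For the read counter, annotation release and the authors' test, nothing is given in the sources used. The authors' raw counts per Ensembl gene, whole numbers, were used for every test. Per the file headers, the table also holds the authors' normalized signal, that signal per gene length, log2 fold changes and p-values against vehicle, none of which was used here for results.

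Counts of the 8 wild-type BPA and stigmasterol libraries entered a model in edgeR 4.0.16 (R 4.3.3): genes filtered by filterByExpr (minimum count 10, minimum total 15; 18999 of 32643 genes kept, 2397 without a read), TMM scaling, a quasi-likelihood F test, two-sided, and Benjamini-Hochberg adjustment at 0.05 over all genes. The knockout comparison and the difference between genotypes used 14 libraries and 19983 genes, and vehicle contrasts the 12 wild types and 19239 genes. CPM used TMM factors over all 21. limma 3.58.1 and DESeq2 1.42.0 were alternatives; DESeq2 left 1860 adjusted p-values undefined. The procedure was tested on simulated data. The p-values set the difference between groups against the spread between animals of a group, which may share a litter. With total counts of 35459523 to 55605367 a count of 3 is worth 0.0546 to 0.0884 CPM.

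Genes named are the 20 smallest p with a conventional symbol and 1 CPM or more on average in the higher group (0 genes passed the rule for called genes), the smallest p of 35 of 38 lists (those of the others are not reported here), 5 receptor genes, and 39 examples of list members chosen after their values were seen. Members and lists were chosen with earlier results of these data known, and no list was tested as a set. There were 34 symbols shared by more than 1 gene.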

Additional observations from a re-analysis of the deposited data

Results flagged for a closer look

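In 23 of 282 groups of 4 animals, 1 animal lay apart from the other 3 of its group by Dixon's criterion, where chance gives about 1 in 20. Among stigmasterol animals T119 stood out in Hba-a2 (13.28 CPM against 5.147 to 6.002), Hbb-bs (70.18 against 24.76 to 31.76), Cyp17a1 (179.2 against 84.39 to 94.78) and Cpt1a (219.9 against 189.1 to 193.3). T78 stood out in Slc16a1 (112.4 CPM against 150.8 to 154.2), Ebp (26.91 against 37.74 to 37.96) and Postn (48.74 against 24.74 to 28.46), each time toward the BPA animals. T98 stood out in Nr1h4 (0.303 CPM against 0.5472 to 0.582).

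Among BPA animals T61 stood out in the plasma protein genes Alb (577.9 CPM against 0.3726 to 58.56), Ahsg (252.7 against 7.802 to 31.64) and Apoa1 (82.29 against 0.1972 to 7.439), and in Grin2c (5.491 against 4.339 to 4.363). T75 stood out in Pax8 (6.271 CPM against 3.945 to 4.105) and Soat1 (140.5 against 156.8 to 160.0), and T60 in Mturn (25.35 against 26.94 to 27.11).

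Among vehicle animals T79 stood out in Enc1 (117.6 CPM against 137.0 to 139.0), Tubb3 (117.8 against 190.2 to 203.6) and Ebp (25.27 against 39.00 to 39.65), in each case toward the level of the BPA animals. T71 stood out in Yam1 (10990 CPM against 1294 to 2516) and Slc25a27 (14.83 against 17.28 to 17.68), T81 in Cdh16 (17.57 against 0.1002 to 0.3799) and Sohlh1 (54.31 against 83.04 to 87.76), and T66 in Rpl22 (325.4 against 261.4 to 268.0).

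The BPA minus stigmasterol difference of Lta differed between wild type and knockout by 4.067 log2 units by the test of the difference itself.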

How the results depend on the processing

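The count of 0 genes called between BPA and stigmasterol in wild type was also 0 with all 21 libraries, the 12 wild types, RLE size factors, no filter on low counts and limma-voom, and 399 with DESeq2. Leaving out 1 animal gave 0 to 679 genes. Without T75 the gene called was the pseudogene Rpl3-ps1, and without T74 Ces1d and Aqp9 were called. Without T60 and T75, whose Cdh16 reached 10 CPM, there was 1 gene (Rpl3-ps1), without T61 and T75, whose Alb did, 1 (Rpl3-ps1), and without all 3, chosen after seeing the data, 4 (Rpl3-ps1, Gm7293, Gm13394 and RP23-8J15.5). These features were named after their values were seen. Genes at an unadjusted p of 0.05 were 884, 1187 and 503 in these 3 settings and 1563 to 4829 with 1 animal left out. Genes without overlap were 2628, 2977 and 7275 and 1632 to 4116, since fewer animals overlap less. List members called were 32 (4.17%, against 2.1% of all genes) with DESeq2 and 0 to 41 with 1 animal left out, with 41 (5.28%, against 3.53%) without T78. Of 38 list medians, 22 kept their sign in all 17 alternatives. In the knockouts the 2 genes were 1 without the filter and 6 with DESeq2, and 0 to 3 with 1 animal left out. The difference between genotypes gave 90 genes with DESeq2 and 0 to 19 with 1 animal left out. The cause of the gap between DESeq2 and edgeR was not tested.

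Of the 94 named genes, 44 were called by DESeq2, 40 by edgeR without T78 and 0 under the other settings. Over all genes the shares were 2.1% with DESeq2 and 3.53% without T78. Most of the 94 were chosen by their p in this comparison or after their values were seen, so these counts are a description. Nr1h4 had the opposite sign in 6 settings: -0.016 with limma-voom, -0.69 without the Alb libraries, -1.04 without the Cdh16 and Alb libraries, and -0.01, -0.21 and -0.07 without T75, T61 and T98. Without the Cdh16 and Alb libraries Alb was -2.52, Apoa1 -1.84, Ahsg -0.31 and Cdh16 -0.38. Ahsg was -0.11 without the Alb libraries, Cdh16 -0.37 without the Cdh16 libraries, and Esr2 0.159 without T78. With 1 animal left out Esr2 ran from -0.273 to 0.159 and Nr1h4 from -0.207 to 0.359. No paired analysis was possible because animals carry unique numbers that no other group shares. Nr1h4 (11 to 40 reads per library), Hoxd3 and Lta are limited by depth.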

Other observations

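Of the wild-type vehicle animals, T79 was the one nearer to the BPA mean in most of the 1310 genes that kept BPA and stigmasterol animals apart (760 genes, against 402 to 485 in the other 3). Of the 20 genes with the smallest p, T79 was nearer to BPA in 13, T71 in 7, T66 in 6 and T81 in 5. The knockout animals, which had no part in the choice of those genes, were nearer to the wild-type BPA mean in 45.2% of the 1310 genes (vehicle T1) to 72.0% (stigmasterol T93). All 3 knockout stigmasterol animals (68.9%, 69.3% and 72.0%) lay on the BPA side about as often as the 3 knockout BPA animals (70.7%, 71.5% and 71.9%).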
